A study of Homo sapiens with 6 samples.

Results

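The HOX cluster genes were taken by their symbols (HOX, a cluster letter from A to D and a number) and came to 39 of the 39282 genes in the tables: 11 in HOXA, 10 in HOXB, 9 in HOXC and 9 in HOXD. They were measured in 6 poly(A) RNA-seq libraries of human ovarian tumour cell lines, in a study whose title concerns MEX3A, an RNA-binding protein, in p53 degradation and ferroptosis. In PA-1, an ovarian teratocarcinoma line kept in EMEM with heat-inactivated serum, 2 libraries carried a lentiviral short hairpin against MEX3A (sh-MEX3A#1, here hairpin 1, and sh-MEX3A#2, here hairpin 2) and 1 carried a scramble hairpin (sh-Ctrl). In TOV21G, an ovarian clear cell carcinoma line kept in a mixture of MCDB 105 and Medium 199 with serum, the same 3 hairpins gave 3 libraries. Each tumour type is represented by 1 line, the depleted cells are called clones in the design text, and every library has been through lentiviral infection.

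HOX genes encode homeodomain transcription factors that lie side by side in clusters and are switched on in the order in which they stand, so that low-numbered paralog groups mark anterior and high-numbered groups posterior positions of the embryo. In pluripotent cells the clusters are held silent by Polycomb proteins and are opened by retinoic acid, CDX factors and MLL complexes. In the female reproductive tract the posterior HOXA genes pattern the oviduct, uterus and cervix, and HOXA10 is the member best known in the uterus. HOX proteins bind DNA together with the TALE cofactors PBX, MEIS and PKNOX.

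The strands below are those of the GENCODE annotation of hg38, the build named for these files. Starts, ends and spans are those of RefSeq genes. The members of HOXA lie on the minus strand of chromosome 7. HOXB spans 200.2 kb of the minus strand of chromosome 17, from 48528526 to 48728750. HOXC spans 117.2 kb of the plus strand of chromosome 12, from 53938831 to 54056030, and HOXD spans 103.4 kb of the plus strand of chromosome 2, from 176087487 to 176190907.

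RefSeq promoter windows (GRCh38.p14, 300 bases around a gene's start, most of them before it, 5′ to 3′) were at hand for 20 of the 39 members. The windows below belong to the members on which the comparison of the lines turns. HOXA7 was the highest member in PA-1, HOXA10 the highest in TOV21G and HOXD13 the member at like levels in both. HOXC4 and HOXC5 share 1 start and were at 0 in every PA-1 library. HOXC6 is annotated with the same start but had no window at hand, and it had 0, 1 and 0 counts in PA-1. Capitals mark CG dinucleotides, the sites of DNA methylation.
HOXA7 (chr7:27156626-27156925, minus strand): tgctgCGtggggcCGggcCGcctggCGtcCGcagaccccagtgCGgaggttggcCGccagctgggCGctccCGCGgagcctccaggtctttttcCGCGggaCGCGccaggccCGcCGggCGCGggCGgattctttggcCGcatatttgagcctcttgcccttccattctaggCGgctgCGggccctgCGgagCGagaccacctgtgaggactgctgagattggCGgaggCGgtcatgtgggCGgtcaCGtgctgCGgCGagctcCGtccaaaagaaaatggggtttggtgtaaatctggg
HOXA10 (chr7:27174271-27174570, minus strand, the window nearer the end of the gene): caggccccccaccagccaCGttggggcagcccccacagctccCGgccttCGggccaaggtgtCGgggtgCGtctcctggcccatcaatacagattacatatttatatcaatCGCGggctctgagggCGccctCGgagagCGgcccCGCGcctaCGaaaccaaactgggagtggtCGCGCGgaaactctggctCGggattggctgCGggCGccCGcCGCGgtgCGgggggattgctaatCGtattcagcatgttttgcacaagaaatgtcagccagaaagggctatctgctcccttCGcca
HOXD13 (chr2:176092471-176092770, plus strand): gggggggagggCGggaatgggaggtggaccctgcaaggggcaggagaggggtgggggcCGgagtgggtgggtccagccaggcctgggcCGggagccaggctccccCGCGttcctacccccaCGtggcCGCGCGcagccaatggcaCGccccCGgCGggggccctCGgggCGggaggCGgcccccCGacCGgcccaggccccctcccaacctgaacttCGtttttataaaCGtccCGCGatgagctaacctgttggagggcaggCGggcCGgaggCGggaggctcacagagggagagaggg
HOXC4 and HOXC5 (chr12:54016638-54016937, plus strand): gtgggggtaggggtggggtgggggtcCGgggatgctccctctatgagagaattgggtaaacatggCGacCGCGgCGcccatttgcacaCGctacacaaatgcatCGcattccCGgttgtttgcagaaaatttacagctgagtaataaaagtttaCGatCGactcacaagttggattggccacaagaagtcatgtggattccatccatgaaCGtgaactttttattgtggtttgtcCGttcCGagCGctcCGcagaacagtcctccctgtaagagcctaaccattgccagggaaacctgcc
The windows hold 31 CG for HOXA7, 25 for HOXA10, 24 for HOXD13 and 15 for HOXC4 and HOXC5, against a median of 14 over all RefSeq windows. TTTATG, the CDX recognition motif, was searched on both strands and stands in 3 of the 27 windows of HOX members (11.1%), against 10.6% of all 35116 windows. The motif TGATNNAT, bound by PBX with HOX, stands in 3 of the 27 (11.1%), against 7.4% of all windows. The printed windows hold neither motif. These counts describe letters in 1 window per start and were set against no measurement of binding or methylation.

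The expected counts (RSEM's estimate of reads per gene) summed to between 14654628 and 19495162 per library. MEX3A stood at 41.2 and 54.6 CPM (counts scaled to the TMM-adjusted library total) with hairpins 1 and 2 in PA-1, against 136 CPM with the scramble hairpin. In TOV21G it stood at 40.3 and 33.4 CPM with hairpins 1 and 2, against 78.2 CPM with the scramble hairpin. The difference did not pass edgeR's test described further on (log2 difference -1.51, SE 0.28, adjusted p = 1 in PA-1, and -1.10, SE 0.29, adjusted p = 0.417 in TOV21G). DESeq2 called it in PA-1 (log2 difference -1.53, SE 0.39, adjusted p = 0.0428) and not in TOV21G (-1.09, SE 0.40, adjusted p = 0.182). Of 10 pluripotency and germ cell tumour markers, 9 reached a mean of 1 TPM (transcript abundance scaled for gene length, which allows genes to be compared) in PA-1 and 3 did in TOV21G. Of 8 clear cell and Müllerian markers, 3 reached it in PA-1 and 5 in TOV21G. All libraries carry the tissue label of ovarian surface epithelium, whose 8 markers reached 1 TPM for 3 genes in PA-1 and 4 in TOV21G. UPK3B was at 0.14, 0.17 and 0 TPM in PA-1 and at 0 in TOV21G. Others of the 8 were present in 1 line more than in the other. NR2F2 had 0.55, 1.33 and 1.01 TPM in PA-1, against 78.3, 77.6 and 120 TPM in TOV21G. WT1 had 8.53, 13.1 and 8.97 TPM in PA-1, against 1.3, 0.69 and 1.91 TPM in TOV21G. Of the 5 that entered the line test described further on, 2 were higher and 3 lower in PA-1.

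PA-1 held little HOX RNA and TOV21G held much. The 39 members summed to 36.5 ± 4.58 TPM in PA-1 and 931 ± 308 TPM in TOV21G (SD, n = 3 libraries each, hairpin and scramble libraries together). The single libraries held 40.9, 36.9 and 31.8 TPM in PA-1, against 1286, 736 and 770 TPM in TOV21G, and the ranges lie far apart. In PA-1, 7 members reached a mean of 1 TPM, and 33 did in TOV21G. The line and its medium cannot be told apart here, nor can fewer cells with a transcript and less transcript per cell.

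HOXA carried most of the HOX RNA in both lines, at 90.4% of the summed TPM in PA-1 and 84.7% in TOV21G. HOXA members summed to 33.0 ± 4.14 TPM in PA-1 and 788 ± 307 TPM in TOV21G (SD, n = 3 each). HOXB summed to 0.413 ± 0.39 TPM in PA-1 and 40.6 ± 7.67 TPM in TOV21G, and HOXC to 0.213 ± 0.136 TPM in PA-1 and 62.0 ± 14.2 TPM in TOV21G (SD, n = 3 each). HOXD summed to 2.89 ± 0.756 TPM in PA-1 and 40.2 ± 9.2 TPM in TOV21G (SD, n = 3 each), and most of its PA-1 sum was HOXD13. The 18 members at 0 in all 3 PA-1 libraries were 7 of 10 in HOXB, 6 of 9 in HOXC, 5 of 9 in HOXD and 0 of 11 in HOXA. In TOV21G only HOXB1 was at 0 in all 3 libraries.

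**Figure D1:**
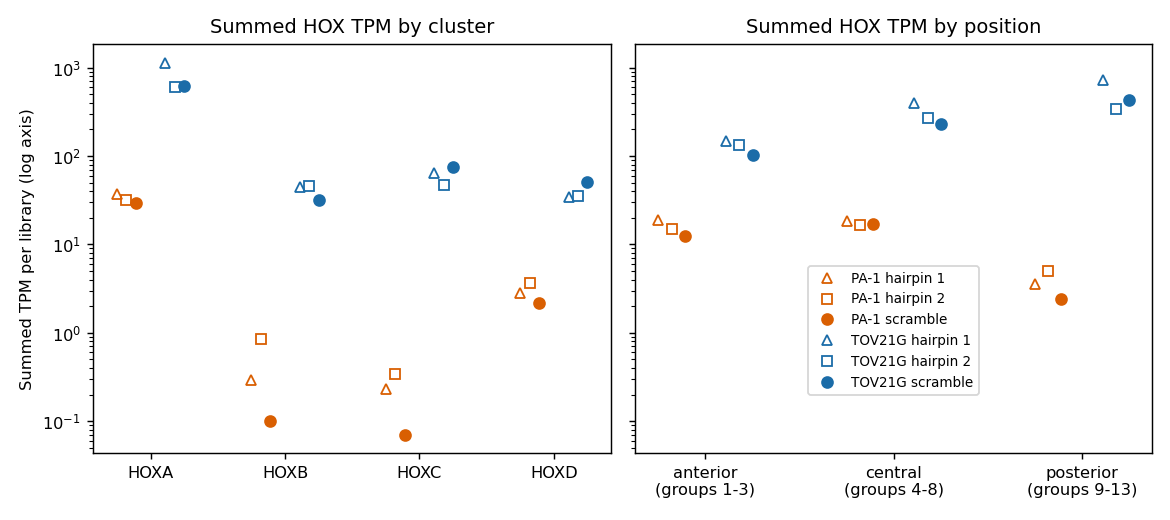
Summed TPM of HOX members in each library on a log axis, by cluster (left) and by position (right); orange is PA-1, blue is TOV21G, and the symbol gives the hairpin. All PA-1 sums lie under all TOV21G sums of the same set, and the posterior members have the lowest PA-1 and the highest TOV21G sums of the 3 position classes.

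The position within the clusters also differed. Anterior members (paralog groups 1 to 3) gave 42.2% of the HOX TPM in PA-1 and 13.7% in TOV21G, and central members (groups 4 to 8) gave 47.8% in PA-1 and 32.3% in TOV21G. Posterior members (groups 9 to 13) gave 10.0% in PA-1 and 53.9% in TOV21G. Posterior sums were 3.57, 5.01 and 2.42 TPM in PA-1, against 735, 337 and 433 TPM in TOV21G. Most of this sum was HOXD13 in each PA-1 library and HOXA10 in each TOV21G library, so the posterior shares rest largely on single genes. HOXA10 alone held 0.44%, 1.98% and 0% of the HOX TPM in PA-1 libraries, and 49.2%, 33.4% and 40.2% in TOV21G libraries.

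**Figure D2:**
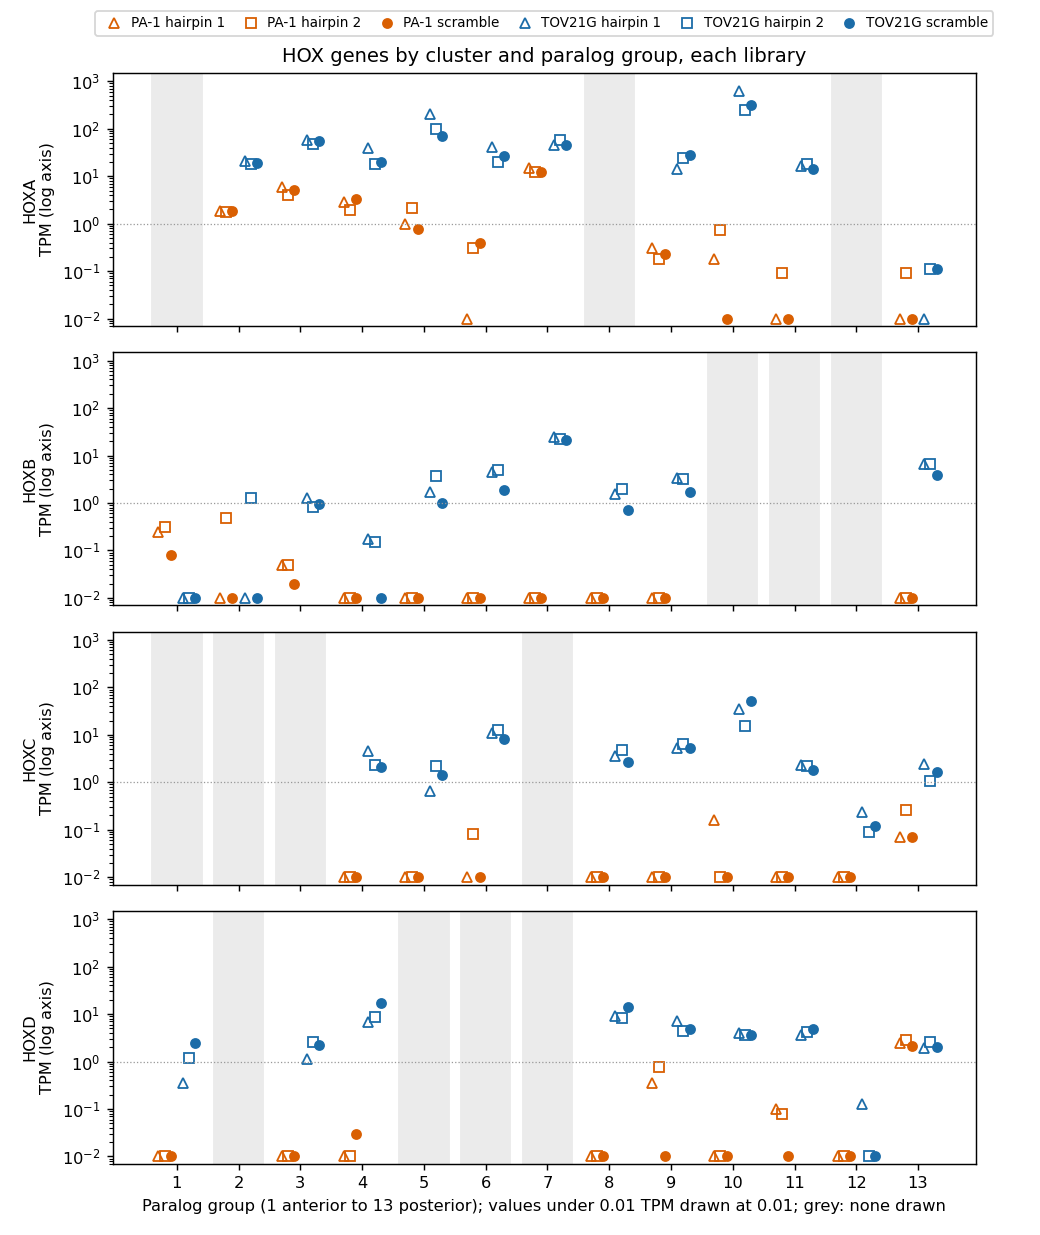
TPM of HOX members in each library on a log axis, 1 panel per cluster, by paralog group; orange is PA-1, blue is TOV21G, values under 0.01 TPM are drawn at 0.01, and grey columns have none drawn. Of the members drawn, PA-1 values reach 1 TPM only in HOXA2 to HOXA5, HOXA7 and HOXD13, and HOXD13 is the member whose values in the lines overlap at such a level.

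The lines were compared with edgeR's quasi-likelihood test on expected counts, 3 libraries against 3, with Benjamini-Hochberg adjustment over 15129 genes and a threshold of 0.05. Nothing given with the samples says that the libraries of a line are separate cultures, so p-values measure the spread between these libraries only. Of the 39 members 31 were tested, 30 were lower in PA-1 and 0 were higher, where 24.6% of all genes tested were lower, 24.1% higher and 48.6% either. This count is no support by itself, because 25 of the 31 had fewer than 10 counts in some PA-1 library and passed the filter through TOV21G. The 6 others, with HOXA2, HOXA3, HOXA4, HOXA7 and HOXD13 among them, had 10 or more counts in every PA-1 library, and 5 of the 6 were lower in PA-1.

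The anterior HOXA genes were present in both lines. HOXA2, a hindbrain and branchial arch regulator, had 1.88, 1.80 and 1.84 TPM in PA-1, against 21.4, 18.5 and 19.2 TPM in TOV21G (log2 difference -3.58, SE 0.24, edgeR adjusted p = 4.74e-05). HOXA3, needed for thymus and parathyroid, had 5.91, 4.02 and 5.18 TPM in PA-1, against 58.7, 47.1 and 54.9 TPM in TOV21G (log2 difference -3.62, SE 0.20, edgeR adjusted p = 2.39e-05). In both genes every PA-1 library was below every TOV21G library.

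Among the central HOXA genes the difference ran from moderate to large. HOXA4 had 2.87, 1.95 and 3.30 TPM in PA-1, against 39.5, 17.7 and 19.8 TPM in TOV21G (log2 difference -3.39, SE 0.37, edgeR adjusted p = 0.000321). HOXA5, known for its role in lung development, had 1.00, 2.13 and 0.79 TPM in PA-1, against 209, 97.4 and 70.2 TPM in TOV21G. HOXA6 had 0, 0.31 and 0.39 TPM in PA-1, against 41.0, 20.1 and 26.4 TPM in TOV21G. HOXA7 was the highest member in each PA-1 library, at 14.8, 12.2 and 12.5 TPM, against 45.4, 58.9 and 45.6 TPM in TOV21G. Its difference, -2.10 on the log2 scale (SE 0.21, edgeR adjusted p = 0.000212), was the smallest of the 30 that passed, and its groups did not overlap.

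The posterior HOXA genes were near 0 in PA-1. HOXA9, a gene of the oviduct in reproductive tract patterning and of blood progenitors, had 0.31, 0.18 and 0.23 TPM in PA-1, against 14, 24.3 and 28.3 TPM in TOV21G. HOXA10, the uterine member, had 0.18, 0.73 and 0 TPM in PA-1, against 632, 246 and 310 TPM in TOV21G, where it was the highest member in each library. HOXA11, also a uterine gene, had 2 counts in all in PA-1, and was at 0, 0.09 and 0 TPM, against 16.8, 17.9 and 14.2 TPM in TOV21G. By counts it was 515-fold lower in PA-1 (95% interval 142 to 4263, counting error only). HOXA13, the member of the cervix and the distal limb, ended the cluster near 0 in both lines, with 0, 4 and 0 counts in PA-1 and 0, 4 and 4 counts in TOV21G.

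Genes that share sequence limit how these reads are divided. A readthrough transcript, HOXA10-HOXA9, was counted beside HOXA9 and HOXA10 and was at 0 in PA-1, against 133, 72.5 and 81.9 TPM in TOV21G. HOXA3, HOXA4, HOXA7, HOXA9 and HOXA10, with HOXB3, HOXC4, HOXC5 and HOXC6, are the 9 members with an expected count that was not whole in some library, which marks reads divided between genes. Exons of HOXC4, HOXC5 and HOXC6 overlap on 1 strand, as do those of HOXB3 with HOXB4 and HOXB6, and those of HOXD10 with HOXD11. The strand setting of the counting is not given in the sources used here, so reads of a member and of an antisense RNA over its exons cannot be told apart.

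HOXB was at or near 0 counts in PA-1. HOXB1, a hindbrain gene, was the reverse of the rest, with 3, 5 and 1 counts (0.24, 0.31 and 0.08 TPM) in PA-1 and 0 counts in TOV21G. It was too low to be tested. HOXB2 had 5 counts in 1 PA-1 library and 9 in 1 TOV21G library, and HOXB4 had 0 counts in PA-1 and 4 in all in TOV21G. HOXB3 had 1 count in each PA-1 library, and 0.05, 0.05 and 0.02 TPM there, against 1.30, 0.82 and 0.95 TPM in TOV21G. This was 52.4-fold lower in PA-1 by counts (95% interval 17.6 to 257).

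The other 6 HOXB genes were at 0 counts in all PA-1 libraries, so their folds are lower bounds, computed against 3 counts over the 3 PA-1 libraries (0.0573 CPM). HOXB7, the highest of HOXB, had 25.0, 22.8 and 21.6 TPM in TOV21G and was at least 222-fold lower in PA-1. HOXB13, a prostate lineage gene, had 6.69, 6.59 and 3.87 TPM in TOV21G and was at least 138-fold lower in PA-1. HOXB5 had 1.71, 3.79 and 1.02 TPM, HOXB6 4.56, 5.07 and 1.92 TPM, HOXB8 1.58, 1.95 and 0.72 TPM, and HOXB9 3.35, 3.20 and 1.67 TPM in TOV21G. Their bounds were at least 30.4-fold lower in PA-1 for HOXB5, 55.1-fold for HOXB6 and for HOXB9, and 26.2-fold for HOXB8. All 6 entered the test through TOV21G alone, so no p-value is given for them.

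HOXC10, a gene of the lumbar spinal cord and hindlimb and the highest HOXC member in TOV21G, had 0.16, 0 and 0 TPM in PA-1, against 35.1, 15.0 and 51.3 TPM in TOV21G. By counts HOXC10 was 763-fold lower in PA-1 (95% interval 211 to 6310). HOXC6, a thoracic gene, had 0, 0.08 and 0 TPM in PA-1, against 10.7, 12.5 and 8.14 TPM in TOV21G, or 418-fold lower in PA-1 by counts (95% interval 74.6 to 16571). HOXC13, a hair and nail gene, had 0.07, 0.26 and 0.07 TPM in PA-1, against 2.47, 1.04 and 1.67 TPM in TOV21G. It is the HOXC gene with the most PA-1 counts, 1, 5 and 1.

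The 6 remaining HOXC genes were at 0 counts in all PA-1 libraries. HOXC9 had 5.34, 6.40 and 5.17 TPM in TOV21G (at least 59.7-fold lower in PA-1), and HOXC8 had 3.54, 4.76 and 2.73 TPM (at least 69.3-fold lower in PA-1). HOXC4 had 4.62, 2.29 and 2.08 TPM (at least 40.5-fold lower in PA-1), and HOXC11 had 2.35, 2.22 and 1.79 TPM in TOV21G (at least 55.5-fold lower in PA-1). HOXC5 had 0.64, 2.16 and 1.43 TPM in TOV21G and HOXC12 had 5, 2 and 3 counts there. HOXC5 and HOXC12 were not tested.

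HOXD held the exception. HOXD13, the last gene of its cluster and a regulator of digits, had 2.40, 2.82 and 2.12 TPM in PA-1, against 1.95, 2.52 and 2.01 TPM in TOV21G. The groups overlapped, and the log2 difference was 0.04 (SE 0.32, edgeR adjusted p = 0.929). Its counts summed to 131 in PA-1 and 109 in TOV21G, a ratio of 1.04 after scaling (95% interval 0.8 to 1.35, counting error only). Its neighbour HOXD12 was at 0 counts in PA-1 and had 2 counts in all in TOV21G.

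The rest of HOXD was low in PA-1. HOXD11 had 0.10, 0.08 and 0 TPM in PA-1, against 3.59, 4.20 and 4.86 TPM in TOV21G, 80.3-fold lower in PA-1 by counts (95% interval 21.8 to 670). HOXD9 had 0.35, 0.76 and 0 TPM in PA-1, against 7.16, 4.32 and 4.75 TPM in TOV21G. HOXD4 had 0, 0 and 0.03 TPM in PA-1, against 6.87, 8.56 and 17.0 TPM in TOV21G, 898-fold lower in PA-1 by 1 count (95% interval 161 to 35517). At 0 in all PA-1 libraries were HOXD8 (9.20, 8.27 and 13.8 TPM in TOV21G, at least 135-fold lower in PA-1) and HOXD10 (4.06, 3.55 and 3.62 TPM, at least 49.7-fold lower in PA-1). HOXD3 (1.14, 2.64 and 2.23 TPM in TOV21G, at least 49.3-fold lower in PA-1) was also at 0 there, as was HOXD1, which had 0.35, 1.19 and 2.47 TPM in TOV21G and was not tested.

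Of 23 other transcripts listed within or beside the clusters, 9 were tested and all 9 were lower in PA-1, but those at or near 0 there passed the filter through TOV21G, so the count is no support. HAGLROS, which was not tested, had 5, 1 and 1 counts in PA-1 and 0 counts in TOV21G. HOTAIRM1, a noncoding RNA of the HOXA cluster, had 18.6, 14.6 and 8.77 TPM in PA-1, against 97.8, 40.2 and 50.7 TPM in TOV21G (log2 difference -2.33, SE 0.39, edgeR adjusted p = 0.0021). HOXA-AS3 had 0.06, 0.04 and 0 TPM in PA-1, against 8.51, 20.1 and 10.7 TPM in TOV21G, and HAGLR, in HOXD, had 0.28, 0.06 and 0.08 TPM in PA-1, against 4.45, 4.56 and 5.93 TPM in TOV21G.

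Some of the TALE cofactors went the other way. Of 9 listed and tested, 5 were higher in PA-1 and 0 lower, where 24.1% of all genes tested were higher and 24.6% lower. The median log2 difference of the 9 was 1.06, beside -0.02 over all genes tested. PKNOX2, 1 of the 5, had 0, 0 and 2 counts in TOV21G and passed the filter through PA-1. The count and the median are therefore given as a description only. Those that did not pass include PKNOX1, which was level (log2 difference -0.05, SE 0.18, edgeR adjusted p = 0.833). MEIS2 had 56.3, 47.1 and 66.3 TPM in PA-1, against 1.56, 1.31 and 1.51 TPM in TOV21G (log2 difference 4.96, SE 0.23, edgeR adjusted p = 1.42e-05). PKNOX2 had 8.86, 7.07 and 19.9 TPM in PA-1, against 0, 0 and 0.09 TPM in TOV21G. PBX3 had 60.2, 55.7 and 53.7 TPM in PA-1, against 16.8, 11.9 and 18.8 TPM in TOV21G (log2 difference 1.65, SE 0.21, edgeR adjusted p = 0.00057). MEIS1 (log2 difference 1.06, SE 0.27, edgeR adjusted p = 0.0135) and MEIS3 (2.37, SE 0.46, edgeR adjusted p = 0.00431) also passed.

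**Figure D3:**
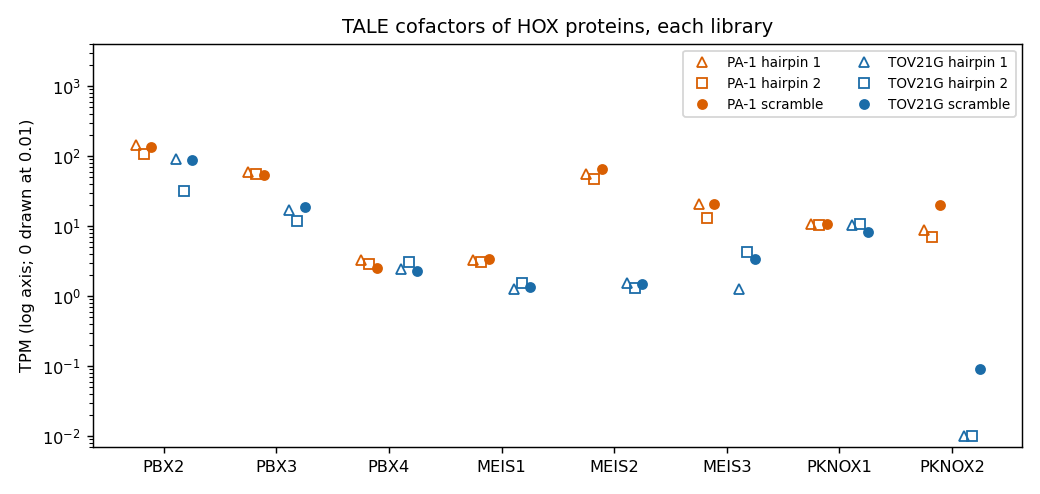
TPM of TALE cofactor genes in each library on a log axis, 0 drawn at 0.01; orange is PA-1, blue is TOV21G. MEIS2 and PKNOX2 stand apart between the lines, and the PKNOX1 values overlap.

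Of the genes known to silence or open the clusters, some were higher and some lower in PA-1. Among 11 genes of PRC2, the complex that places the silencing mark on histone H3, 4 were higher and 0 lower. JARID2, which recruits PRC2, had 118, 110 and 106 TPM in PA-1, against 19.9, 13.9 and 11.7 TPM in TOV21G (log2 difference 2.73, SE 0.19, edgeR adjusted p = 5.44e-05). EZH2, its enzyme, had 89.8, 87.7 and 93.2 TPM in PA-1, against 29.3, 18.6 and 41.8 TPM in TOV21G (log2 difference 1.39, SE 0.28, edgeR adjusted p = 0.00489), and EED and RBBP4 also passed. Of 17 PRC1 genes 3 were higher and 5 lower in PA-1, and CBX2 had 42.8, 30.7 and 50.3 TPM in PA-1, against 3.86, 1.27 and 2.25 TPM in TOV21G.

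Of 17 MLL and menin activators 6 were higher and 2 lower in PA-1; KMT2A itself did not pass (log2 difference -0.35, SE 0.14, edgeR adjusted p = 0.0743). Of 21 CDX and retinoid genes 12 were tested, 6 were higher and 2 lower in PA-1. CRABP1, a retinoic acid carrier, had 499, 308 and 626 TPM in PA-1 and was at 0 in TOV21G, while ALDH1A1, which makes retinoic acid, had 0.23, 0.18 and 0.15 TPM in PA-1, against 137, 73.3 and 437 TPM in TOV21G. Of 9 boundary and cohesin genes 5 were higher and 0 lower, and of 20 homeobox genes outside the clusters 13 were tested, 5 were higher and 4 lower in PA-1. Against 24.1% of all genes higher and 24.6% lower, these counts on lists of 9 to 21 genes are given as counts only.

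In the comparison of MEX3A hairpins with the scramble hairpin, edgeR's quasi-likelihood test with adjustment over 16855 genes called 0 genes in PA-1 and 0 in TOV21G (0.0% in each), so 0 of the 33 HOX members tested and 0 genes of the lists above passed. Each line had 1 scramble library, and the spread came from the pairs of hairpins (2 residual degrees of freedom). At an unadjusted p under 0.05 the test had 434 genes in PA-1 (2.57%) and 1612 in TOV21G (9.56%), among them 2 HOX members in each line, with HOXD9 in PA-1 and HOXD4 in TOV21G. The PA-1 effect minus the TOV21G effect also had 0 genes called and 642 at that unadjusted p (3.81%), with HOXD9 as the 1 HOX member. HOXD9 had 4 and 11 counts with hairpins 1 and 2 in PA-1 and 0 with the scramble hairpin, so these p-values rest on few counts. DESeq2 called 36 genes in PA-1 and 215 in TOV21G. With the hairpin number as a block, edgeR called 13 genes in PA-1 and 36 in TOV21G, and under either alternative 0 were HOX members.

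Without the TOV21G library of hairpin 1, edgeR called 1643 genes in TOV21G and 2 of the HOX members, HOXC10 (log2 difference -1.76, SE 0.38, adjusted p = 0.0472) among them. TOV21G then had 1 hairpin and 1 scramble library, assumed to vary as PA-1 did. In the other alternatives HOXC10 did not pass in TOV21G (edgeR adjusted p up to 1).

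CDX1 and CDX2, homeobox activators of HOX genes, were present in PA-1 alone. CDX2 had 57 and 58 counts with hairpins 1 and 2 in PA-1 (2.49 and 2.01 TPM), against 3 counts with the scramble hairpin (0.13 TPM), ratios of 18.5 (95% interval 6.01 to 92.3) and 15.7 (5.11 to 78.2). CDX1 had 26 and 52 counts with hairpins 1 and 2 (2.42 and 3.82 TPM), against 5 counts with the scramble hairpin (0.46 TPM), ratios of 5.06 (95% interval 1.91 to 16.9) and 8.43 (3.39 to 27.1). Neither passed in edgeR (adjusted p = 1 for each), and both were at 0 in all TOV21G libraries. PKNOX2 stood with hairpins 1 and 2 in PA-1 at 8.86 and 7.07 TPM, against 19.9 TPM with the scramble hairpin (log2 difference -1.38, SE 0.34, edgeR adjusted p = 1).

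**Figure D4:**
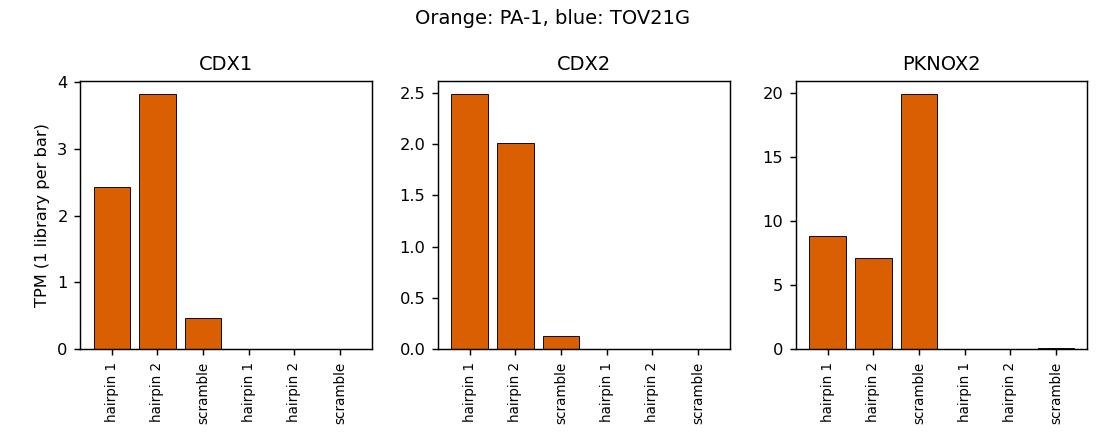
TPM of CDX1, CDX2 and PKNOX2, 1 bar per library; orange is PA-1, blue is TOV21G. In PA-1 CDX1 and CDX2 are higher and PKNOX2 is lower with both hairpins than with the scramble hairpin, and CDX1 and CDX2 have no bar in TOV21G.

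Each hairpin library was also set against the scramble library of its line as a difference in log2 CPM, with no test, for the members with 20 or more counts in some library of the line. In TOV21G 33 members qualified: 13 were higher with both hairpins, 10 lower with both and 10 differed in side, where 31.9% of 13896 genes were higher with both and 33.8% lower. These counts are near the background and are no result about the members. At least 1.5-fold higher with both hairpins were 5, with HOXB6, HOXB8, HOXB9 and HOXB13 among them, where 8.26% of all genes were, and at least 1.5-fold lower were 4 (HOXC10, HOXD1, HOXD4 and HOXD8), where 8.13% were. At least 2-fold higher was 1 member (3.45% of all genes), and at least 2-fold lower was 1, HOXD4 (3.09%). Both differences of a line share the scramble library, so a low or high value there moves both.

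Side counts by cluster in TOV21G are given as a description, since the difference between clusters was not tested and all values share the scramble library. Of 7 HOXB members 6 were higher with both hairpins and 1 lower, where 31.9% of all genes were higher with both and 33.8% lower. The HOXB medians were 0.61 for hairpin 1 and 0.92 for hairpin 2 on the log2 scale. HOXB6 had 51 and 66 counts with hairpins 1 and 2, against 26 with the scramble hairpin, HOXB8 25 and 31 against 12, HOXB9 54 and 58 against 31, and HOXB13 129 and 143 against 86. HOXB7, with 191 and 194 counts with hairpins 1 and 2 and 190 with the scramble hairpin, was nearly level and is 1 of the 6. The HOXB medians rest on members with few counts and were not tested.

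Of 8 HOXD members in TOV21G 0 were higher with both hairpins and 5 lower, where 31.9% of all genes were higher with both and 33.8% lower. The HOXD medians were -0.62 for hairpin 1 and -0.15 for hairpin 2, and were not tested. HOXD10, 1 of the 5, was level, with 43 and 42 counts with hairpins 1 and 2, against 44 with the scramble hairpin. HOXD4, a gene of the hindbrain and upper spine, had 164 and 186 counts with hairpins 1 and 2, against 427 with the scramble hairpin, folds of 0.392 (95% interval 0.326 to 0.471) and 0.454 (0.38 to 0.541). Its log2 difference was -1.25 (SE 0.34, edgeR adjusted p = 0.466). HOXD8 had 89 and 93 counts with hairpins 1 and 2, against 168 with the scramble hairpin, and HOXD1 had 4 and 15, against 32. In HOXC, HOXC10 had 418 and 200 counts with hairpins 1 and 2, against 703 with the scramble hairpin (log2 difference -1.16, SE 0.58, edgeR adjusted p = 0.59).

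HOXA10 and HOXA5 were the members with the highest mean TPM in TOV21G. HOXA10 had 6821 and 2979 counts with hairpins 1 and 2, against 3909 with the scramble hairpin, above it with hairpin 1 and below it with hairpin 2 (log2 difference 0.36, SE 0.62, edgeR adjusted p = 0.59). HOXA5 had 2040 and 1064 counts with hairpins 1 and 2, against 790 with the scramble hairpin (log2 difference 1.01, SE 0.54, edgeR adjusted p = 0.61). HOXA9 had 175 and 341 counts with hairpins 1 and 2, against 407 with the scramble hairpin. Summed HOX TPM of TOV21G was 1286 and 736 TPM with hairpins 1 and 2, against 770 TPM with the scramble hairpin. HOXA10 gave 632 and 246 TPM of it, against 310 TPM, so the sum is not separate from HOXA10. Central members summed to 403 and 267 TPM, against 233 TPM, and anterior members to 148 and 132 TPM, against 104 TPM. Both of these sums were above the scramble library with each hairpin, which was not tested.

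In PA-1, 7 members qualified: 3 were higher with both hairpins, 2 lower and 2 differed in side, where 35.6% of 14000 genes were higher with both and 34.7% lower. At least 1.5-fold higher with both hairpins was 1 member, where 6.09% of all genes were, and 0 were at least 1.5-fold lower, where 1.79% were. At 2-fold, 0 members were higher (2.69% of all genes) and 0 lower (0.336%). HOXA5 had 10 and 27 counts with hairpins 1 and 2, against 8 with the scramble hairpin, and HOXA7 had 184 and 194, against 159. After scaling to the library totals, HOXA7 stood at 1.13 and 0.989 times the scramble level, and is 1 of the 2 that differed in side. HOXA4 had 29 and 24.9 counts with hairpins 1 and 2, against 34 with the scramble hairpin. HOXD9, under 20 counts in each library, had 4 and 11 counts with hairpins 1 and 2 and 0 with the scramble hairpin, and no fold is given.

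**Figure D5:**
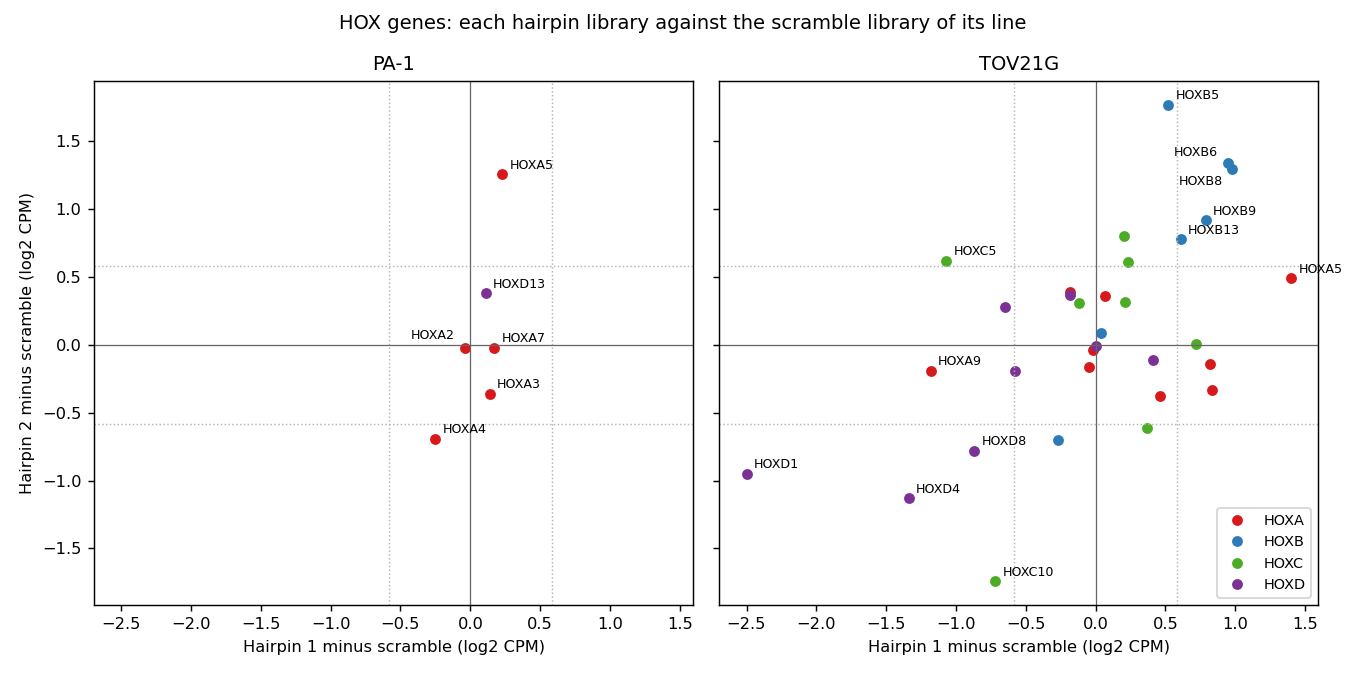
Difference in log2 CPM from the scramble library of the line, hairpin 1 on the x axis and hairpin 2 on the y axis, points for HOX members with 20 or more counts in some library of PA-1 (left) or TOV21G (right); dotted lines mark 1.5-fold. In TOV21G the HOXB points lie mostly at the upper right, with HOXB7 near the origin and HOXB3 on the lower side. HOXC10, HOXD1, HOXD4 and HOXD8 lie past both dotted lines at the lower left.

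Other RNAs differed between the hairpin and scramble libraries as well. NEAT1, a nuclear-retained RNA, stood at 229% and 230% of the scramble level with hairpins 1 and 2 in PA-1 and at 316% and 298% in TOV21G, and MALAT1 at 145% and 123% in PA-1 and at 220% and 431% in TOV21G. Summed pluripotency markers were 3904 and 4309 TPM with hairpins 1 and 2 in PA-1, against 3418 TPM with the scramble hairpin. The members went both ways there. POU5F1 had 2106 and 2395 TPM, against 891 TPM, and NANOG, TDGF1 and DPPA4 were also higher with both hairpins. LIN28A had 1118 and 1242 TPM, against 1740 TPM, and SOX2, PRDM14 and LIN28B were also lower with both. In TOV21G the sums were 44.6 and 54.6 TPM, against 22.6 TPM, and LIN28A gave 29.1 and 47.1 TPM, against 12.8 TPM. Clear cell and Müllerian markers summed to 1723 and 1587 TPM with hairpins 1 and 2 in PA-1, against 377 TPM with the scramble hairpin. In TOV21G they summed to 3585 and 6319 TPM, against 9345 TPM, and most of the sum in every library was SPP1. Surface epithelium markers summed to 14.9 and 19.0 TPM with hairpins 1 and 2 in PA-1, against 13.2 TPM with the scramble hairpin, and to 136 and 169 TPM in TOV21G, against 154 TPM. General epithelial markers summed to 507 and 661 TPM with hairpins 1 and 2 in PA-1, against 440 TPM with the scramble hairpin, and to 447 and 344 TPM in TOV21G, against 229 TPM. Neural markers summed to 356 and 330 TPM with hairpins 1 and 2 in PA-1, against 303 TPM with the scramble hairpin, and to 316 and 237 TPM in TOV21G, against 216 TPM. Mesoderm and stroma markers summed to 88.0 and 61.0 TPM with hairpins 1 and 2 in PA-1, against 48.7 TPM with the scramble hairpin, and to 212 and 197 TPM in TOV21G, against 78.5 TPM. The part of these in the HOX values was not tested.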

How the data were processed

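RNA was poly(A)-selected and sequenced with a stranded kit, per the labels' protocols. The submitters' processing notes name cutadapt 1.12, STAR 2.5.3a, RSEM 1.2.31, edgeR 3.26.8 and hg38; the strand setting and the use of edgeR are not given in the sources used here. The authors deposited, per library, RSEM expected counts and TPM for 39282 genes. Expected counts were rounded to whole numbers, scaled by TMM and tested with edgeR 4.0.16 in R 4.3.3 (quasi-likelihood F test, Benjamini-Hochberg adjustment, threshold 0.05). The line test compared 3 PA-1 with 3 TOV21G libraries (filterByExpr on the line, 15129 genes, 4 residual degrees of freedom). The hairpin tests used 4 groups, line by hairpin target (16855 genes, 2 residual degrees of freedom). Both were run on simulated data with less spread between libraries than these data had, so that run does not show what either test misses here. Hairpin differences used a prior count of 2. Exact 95% intervals and the floor of 3 counts cover counting error only. Alternatives were DESeq2 1.42.0, limma 3.58.1 on log2(TPM + 1), RLE scaling, no count filter, other minimum counts, the replicate block and leaving out each library. Deviations from the line mean were compared across the lines over 15129 genes. Same-numbered hairpins deviated together (correlations 0.227 for hairpin 1, 0.32 for hairpin 2 and 0.255 for the scramble libraries), against -0.209 to -0.015 for unlike pairs. Deviations within a line sum to 0, so like and unlike pairs are not independent. The main tests did not use this pairing by number, and the replicate block did.

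Members and lists were chosen with earlier results of these data known. Values in every library were given for members with a mean of 1 TPM in a line, past the line test or at least 1.5-fold from the scramble library with both hairpins. For each list up to 4 genes with the smallest p in a test could be named, besides CDX2, EZH2, KMT2A, MEIS1, MEIS2 and PKNOX2. CDX1 and HOTAIRM1 were taken by that rule, and ALDH1A1 and CRABP1 likewise. Some genes are not reported here.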

Additional observations from a re-analysis of the deposited data

How the results depend on the processing

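In the line test, 30 of the 31 HOX members tested were lower in PA-1 with the adjusted p under 0.05 in all 13 alternatives; without the count filter 33 were called. Leaving out 1 library gave 5529 to 7640 genes called, against 7358. HOXD13 was called in none of them, with differences from -0.09 to 0.22 when 1 library was left out, and under 0 without hairpin 2 of PA-1 (-0.09), hairpin 1 of TOV21G (-0.08) or the scramble library of TOV21G (-0.0023); with 131 counts in PA-1 and 109 in TOV21G its sign is not determined. limma on log2(TPM + 1) placed the median of all genes at 0.14, against -0.02 with edgeR. For the hairpins, edgeR called 0 genes, while DESeq2 called 36 (PA-1), 215 (TOV21G) and 19 (PA-1 effect minus TOV21G effect), and the replicate block gave 13 (PA-1) and 36 (TOV21G); leaving out 1 library gave 0 to 1643 in TOV21G. Members at least 2-fold from the scramble library with both hairpins were 0 in PA-1, and 1 at a minimum of 10 counts or with hairpin 2 alone. In TOV21G they were 2, and 4 with a prior count of 0.5 and 6 with either hairpin alone. The cause of these changes was not tested.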
